A study of Drosophila melanogaster with 2 samples.

Results

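The regions described here are the Ken-GFP peaks of Drosophila embryos whose summits lay near protein-coding transcription start sites (TSSs) that all point the same way. They were chosen from the conservative list of peaks that the authors made from both replicates. Every peak of that list had a global irreproducible discovery rate (IDR), a measure of the repeatability of peak ranks, at or below 0.01. Some candidates that met this limit were not in the list, for a reason that is not known here. A peak was kept when its summit lay within 500 bp of protein-coding TSSs of 1 strand and no protein-coding TSS of the other strand lay within 500 bp. This left 961 peaks of 2031 on the main chromosome arms, 47.3% (exact Clopper-Pearson 95% interval 45.1 to 49.5), and of 2087 in the whole list. A further 677 peaks, 33.3%, had TSSs of both strands within that distance and are called divergent, and 393, 19.4%, had none and are called distal. Membership was thus set by the peak call and by the distance of the summit from a TSS, and neither is a result. The data came from chromatin of whole embryos collected from 0 to 24 h from transgenic flies of the strain ken-GFP, which express a ken-eGFP fusion protein, and was precipitated with an antibody against GFP. Another field of the labels names ken as the antibody. There was 1 group with 2 biological replicates and no untagged or mock library was analysed here, so every value below is a description without a test between conditions. Whole embryos hold all tissues of a long span of development, and a peak cannot be assigned to a cell type.

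Ken, encoded by ken and barbie, carries a BTB domain and zinc fingers and is known to repress some of the genes that JAK-STAT signalling turns on. In the compact genome of the fly, promoters come in pairs that point away from each other or stand alone and drive transcription of a gene in 1 direction. Promoters of broadly expressed genes often carry the DNA replication-related element (DRE), TATCGATA, to which the factor DREF binds. Its core, CGATA, is also the word that the boundary protein BEAF-32 recognises, and every TATCGATA holds CGATA on both strands. Others carry GGTCACACT, called Motif 1, to which the pausing factor M1BP binds. Promoters of regulated and tissue-specific genes more often hold a TATA box and an initiator at the TSS.

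The words that go with the peaks can be read in the promoters themselves. The sequences below are the 100 bases before the TSS, on the strand of the gene, of peaks whose summit lay in those bases and whose bases held no annotated protein-coding exon. They come from the NCBI RefSeq release 6 genome, which has dm6 coordinates. Capitals mark CGATA, TATCGATA and Motif 1 on either strand, so that TATCG is CGATA on the other strand. The first set, CG11857 (chr3R:25258798-25258897, plus strand) and Pp2A-29B (chr2L:8365938-8366037, plus strand), shows promoters with CGATA but without TATCGATA. The second set, eIF3f1 (chr3R:4714183-4714282, minus strand), Scsalpha1 (chr3L:3814111-3814210, plus strand) and CkIIalpha-i1 (chr3L:15816879-15816978, plus strand), shows promoters with the full TATCGATA. The third set shows CG13766 (chr2L:6566182-6566281, minus strand) and msl-1 (chr2L:18688801-18688900, minus strand), which have strong peaks without any of these words, and Nse1 (chr2L:6677626-6677725, minus strand), a weak peak with Motif 1 alone.
CG11857: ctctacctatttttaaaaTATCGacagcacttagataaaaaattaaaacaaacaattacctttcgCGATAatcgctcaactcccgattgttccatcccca
Pp2A-29B: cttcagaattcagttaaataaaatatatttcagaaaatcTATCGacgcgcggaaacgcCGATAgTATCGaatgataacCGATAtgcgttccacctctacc
eIF3f1: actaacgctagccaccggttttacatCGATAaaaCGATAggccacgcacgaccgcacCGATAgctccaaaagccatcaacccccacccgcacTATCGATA
Scsalpha1: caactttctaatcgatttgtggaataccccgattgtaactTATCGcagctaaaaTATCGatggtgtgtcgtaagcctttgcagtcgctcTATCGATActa
CkIIalpha-i1: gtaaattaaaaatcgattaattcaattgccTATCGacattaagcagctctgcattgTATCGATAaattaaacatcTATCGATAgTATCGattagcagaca
CG13766: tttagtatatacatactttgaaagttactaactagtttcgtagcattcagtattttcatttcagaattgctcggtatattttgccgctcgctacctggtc
msl-1: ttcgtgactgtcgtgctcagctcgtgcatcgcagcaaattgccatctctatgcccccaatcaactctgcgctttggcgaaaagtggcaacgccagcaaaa
Nse1: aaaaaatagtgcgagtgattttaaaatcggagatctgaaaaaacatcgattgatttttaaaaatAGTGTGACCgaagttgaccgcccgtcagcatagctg

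The promoter of CG11857 had 689 as its signal in the conservative list and 292 and 391 in replicates 1 and 2. The signal is the authors' value per peak. Its scale is not stated and may differ between the replicates. Pp2A-29B, a scaffold subunit of the phosphatase PP2A, had 590, with 217 and 366. Among the promoters with the full DRE, eIF3f1, a subunit of the initiation factor eIF3, had 499, with 236 and 257. Scsalpha1, a subunit of succinyl-CoA synthetase, had 490, with 217 and 269, and CkIIalpha-i1 had 464, with 245 and 228. The thresholded lists of both replicates had a summit within 200 bp of each of these. CG13766, without any of the words, had 448, with 255 and 186, and msl-1, a scaffold of the dosage compensation complex named after its value was seen, had 301, with 109 and 196. Nse1, a subunit of the SMC5/6 complex, had 78.4, with 46.0 and 38.4, and was in the thresholded list of neither replicate.

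Few of the candidates reached the conservative list, and the share was largest at divergent promoters. Of the 148989 ranked candidates on the main arms 2031 did, 1.36%. At single-direction promoters 961 of 15507 candidates did, 6.20%, against 677 of 2189 at divergent promoters, 30.9%, and 393 of 131293 over 500 bp from a TSS, 0.299%. Counted by gene, 909 of the 8953 protein-coding genes with a candidate at a single-direction promoter had a peak there, 10.2%, and 1276 of the 3136 with a candidate at a divergent promoter had a peak there, 40.7%. A divergent peak is counted for at least 1 gene on each strand. Counted by start site, 1068 of 14793 annotated TSSs with no TSS of the other strand within 500 bp had such a peak within 500 bp, 7.22%. The shares are the background for the counts that follow.

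Summits lay mainly just before the TSS. With negative positions upstream, the median summit of the 961 peaks was at −34 bp, with quartiles of −76 and −1 bp. The summit was upstream in 723 peaks, 75.2% (exact 95% interval 72.4 to 77.9), at the TSS in 2 and downstream in 236. In 547 peaks, 56.9%, it lay between −100 and 0 bp. The candidates at single-direction promoters with a global IDR above 0.01, 14517 in number, had a median of 92 bp with quartiles of −138 and 295 bp, and 38.6% of them were upstream. Divergent peaks had a median of −40 bp, and 80.4% were upstream of the nearest TSS. Each replicate's own thresholded list showed the same placement. Replicate 1 held 744 peaks at single-direction promoters with a median of −38.5 bp and 76.6% upstream, and replicate 2 held 855 with a median of −41 bp and 79.4% upstream.

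**Figure D1:**
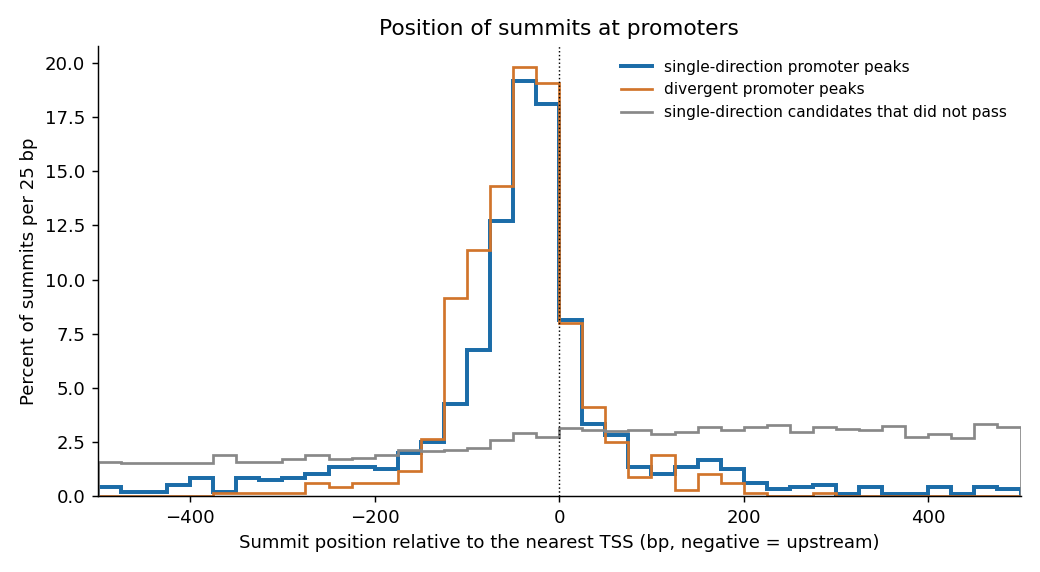
Position of the summit relative to the nearest protein-coding TSS in bins of 25 bp, as a percent of the 961 single-direction peaks, the 677 divergent peaks and the 14517 single-direction candidates that did not pass. Both kinds of peak crowd into the 100 bp before the TSS, while the candidates that did not pass are spread over the window and are more frequent downstream.

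The share of candidates that became peaks followed the same course. Of 1185 candidates with a summit from −50 to −1 bp, 358 were peaks, 30.2%. From −100 to −51 bp 20.9% were, and from 0 to 49 bp 10.9%. The share was 2.83% from 100 to under 200 bp and 0.533% from 300 to 500 bp downstream, and 2.01% from −500 to −301 bp. The signal among the peaks did not follow it on the upstream side, where the medians were 123 from −500 to −301 bp, 93.6 from −300 to −201 bp, 148 from −200 to −101 bp, 158 from −100 to −51 bp and 149 from −50 to −1 bp. Downstream they were 124 from 0 to 49 bp, 89.3 from 50 to 99 bp, 31.2 from 100 to under 200 bp, 71.4 from 200 to under 300 bp and 75.2 from there on. Of the peaks from −50 to −1 bp 71.8% had a thresholded summit within 200 bp in each replicate, and of those from 100 to under 200 bp 23.5% did.

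Some peaks downstream of the TSS were minor summits beside a stronger one. A stronger conservative summit lay within 410 bp of 71 of the 961 peaks, at 190 to 210 bp in 57 cases. These 71 had a median signal of 13.9, against 141 for the other 890, and 36.6% were upstream, against 78.3%. Their replicate signals, with medians of 51.5 and 65.3, were taken from the nearest candidate within 200 bp, and in 102 of the 961 peaks that candidate also served another peak in at least 1 replicate. CCT7, a subunit of the chaperonin CCT, is such a case, with 43.1 in the conservative list and 137 and 151 in the replicates. Of the 51 peaks from 100 to under 200 bp 28 were minor summits, and the remaining 23 had a median signal of 80.5. Sik3, a salt-inducible kinase, had the strongest summit more than 100 bp downstream, at 191 bp in an intron on 2R at 18688705 to 18688901, and reached 353, with replicate values of 165 and 176. The next were BEAF-32 (297 bp, 241), pita, a zinc finger architectural protein (106 bp, 177), milt (156 bp, 169) and ph-p, a Polycomb group protein (484 bp, 144). Sik3 and this summit of milt were named after their values were seen.

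In gene models 582 summits, 60.6%, were intergenic and 220, 22.9%, lay in a 5' UTR. Introns held another 110, coding exons 38 and 3' UTRs 11. At divergent promoters the 5' UTR share was 23.5%, the intron share was 5.76% against 11.4% here, and no summit was in a 3' UTR.

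At the edges of the selection the signals of members overlapped with those just outside. The members farthest upstream were CG43783 (−496 bp, signal 84.3), Oat, ornithine aminotransferase (−491 bp, 122), Hasp (−489 bp, 273), Hml, the hemocyte protein hemolectin (−479 bp, 81.1) and Agpat1 (−462 bp, 72.8). The farthest downstream were ph-p (484 bp, 144), Moe, which encodes the actin linker moesin (479 bp, 66.5), scrib, a polarity scaffold (475 bp, 100.003), CG13203 (467 bp, 63.0) and CG31102 (464 bp, 75.04). Just outside the window lay hry, the segmentation gene hairy (−509 bp, 77.2), 14-3-3zeta (510 bp, 80.1), CG5381 (513 bp, 165), CG12728 (−519 bp, 98.1) and Vdup1 (531 bp, 85.5). The members nearest to the IDR threshold were CG16890, f, sdk, Stoml2 and GstE11, with signals from 65.4 to 108, and the candidates just past it were Ald1, sle, KrT95D, Mthfs and CG13748, with 61.6 to 86.0. The nearest TSS of the other strand lay 504 to 509 bp away at Spase22-23, Naa30A, vig2, HSPC300 and CCT7. The genes at these last edges, from CG16890 on, were named after their values were seen. Of the members farthest from the TSS, CG43783, Moe, CG13203 and CG31102 were in the thresholded list of neither replicate. At scrib replicate 2 had no candidate within 200 bp, and at CG13203 replicate 1 had none.

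The peaks spanned a wide range of signal in the conservative list, and 908 of the 961 had a value in both replicates. The lowest signal was 2.08, the quartiles were 93.3, 133 and 219, and the highest was 1157. Medians were 151 at divergent promoters, 90.6 at distal peaks and 21.6 among the single-direction candidates that did not pass. In the replicates the medians were 65.4 and 76.7, against 69.0 and 90.0 at divergent promoters and 50.6 and 42.5 at distal peaks. In the thresholded list of replicate 1 were 660 of the 961 peaks, 68.7%, in that of replicate 2 747, 77.7%, in both 581, 60.5%, and in neither 135. The corresponding share in both lists was 63.7% of divergent and 26.5% of distal peaks. A peak counted as in a list when any summit of that list lay within 200 bp, which can be that of a stronger neighbour. Of the 100 strongest peaks on the main arms 59 were at single-direction promoters, 33 were divergent and 8 distal. In the quartiles of the list from the lowest to the highest signal, single-direction promoters made up 41.5%, 48.4%, 47.1% and 52.2%.

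**Figure D2:**
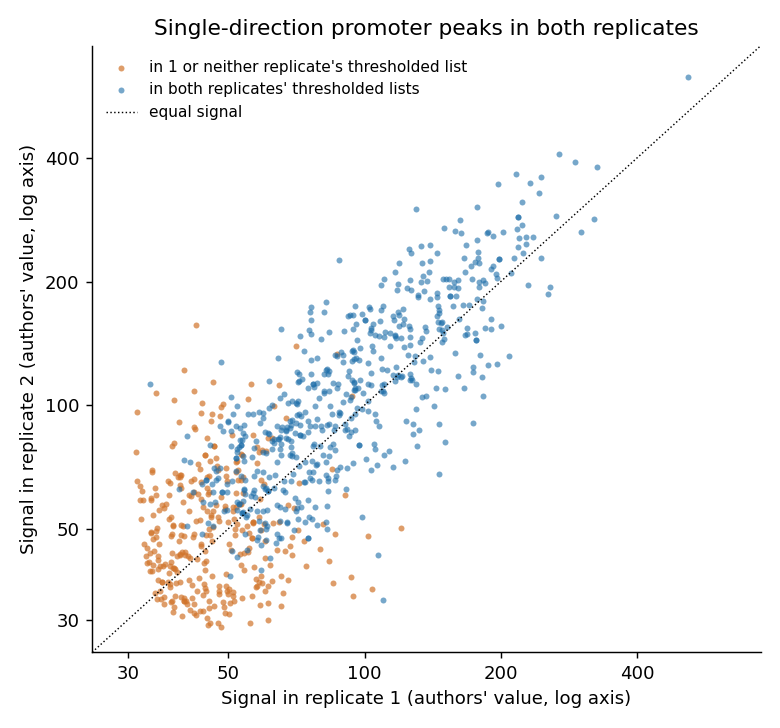
Signal in replicate 1 against replicate 2, on log axes, for the 908 single-direction peaks with a value in both, coloured by whether the peak is in both replicates' thresholded lists; the dotted line marks equal signal. Most points follow the line, and those missing from a list lie mainly, though not all, at the lower signals.

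For the 908 peaks measured in each replicate, the Spearman coefficient was 0.77 and the Pearson coefficient of the log2 values 0.80. Peaks of 1 list share their libraries and were selected for ranks that repeat, so these are descriptions. Replicate 2 had the higher value in 595 of them, and the log2 difference, replicate 2 minus replicate 1, had a median of 0.19 and an SD of 0.50. The median was 0.34 at divergent promoters and −0.30 at distal peaks. The members with the largest excess in replicate 1 were Roc2, a RING subunit of cullin ubiquitin ligases (110 and 33.5, a log2 difference of −1.72), ATP8A, a phospholipid flippase (104 and 35.6), CG30122 (94.3 and 34.3), CG34021 (107 and 43.2) and CG3149 (93.2 and 38.2). Of these 5, all but CG3149 had summits more than 300 bp from the TSS. Of all members 3.95% had summits from −500 to −301 bp and 1.98% from 300 to 500 bp. The 5 with the largest excess in replicate 2, named next, lay at −165, −8, −55, −96 and 79 bp. The largest excess in replicate 2 was at Lap1 (42.5 and 157, a log2 difference of 1.88), CG2200 (33.6 and 113), CG17230 (34.6 and 107), Helz, an RNA helicase (31.4 and 96.4), and ssx, an RNA-binding relative of Sxl (40.0 and 122). At CG2200 and ssx the value of replicate 2 was also that of a stronger member of the same gene, at −40 bp in CG2200 (87.4 and 113) and at −123 bp in ssx (140 and 122), where replicate 1 was the higher. The 8 members with a tRNA gene within 500 bp of the summit, 0.832%, had medians of 102 in replicate 1 and 50.04 in replicate 2 and a median position of −284 bp.

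The strongest peaks stood at genes of many kinds. Sox14, an HMG-box transcription factor, had the highest signal, 1157, with 519 in replicate 1 and 631 in replicate 2, on 2R at 23978395 to 23978723. Its summit at −252 bp had no CGATA within 100 bp. Capr, an RNA-binding protein, followed with 710 (326 and 381) on 3L at 18673080 to 18673375, at −68 bp in sequence annotated as 5' UTR. Creld had 608 (245 and 359) on 2L at 102220 to 102497, at −6 bp. Then came milt, an adaptor of mitochondrial transport, with 590 (321 and 285), CG8613 with 587 (232 and 348), Fit2, a kindlin that binds integrins, with 574 (301 and 264), and RpS2, a protein of the small ribosomal subunit, with 555 (243 and 329). In each of these the values of both replicates were far above the members' medians of 65.4 and 76.7. They were picked by their signal in a list made from both replicates, so this is not separate evidence.

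Further members among the 25 strongest had signals from 540 down to 454. In RNA processing and translation these were Pym, a partner of the exon junction complex (535), eIF3f1 and Pcif1, which binds the phosphorylated tail of RNA polymerase II (493). In membranes and adhesion they were jagn, a protein of the endoplasmic reticulum (540), Gp150, a leucine-rich repeat glycoprotein (521), and kug, the atypical cadherin Fat2 (454). In metabolism they were Hacl, a 2-hydroxyacyl-CoA lyase (517), and Scsalpha1, and in the nucleus SMC1, a cohesin subunit (472), row, a relative of the zinc finger protein woc (482), and Sumo, the ubiquitin-like modifier (462). Others were mnb, the kinase minibrain (469), CkIIalpha-i1, CG11964 (488) and CG11030 (472). The thresholded lists of both replicates had a summit within 200 bp of all 25, against 60.5% of all 961 members. A CGATA word or more lay within 100 bp in 23 of the 25, against 81.6% of all members. The summit lay between −200 and 50 bp in 23. Of all members 9.99% lay from −200 to −101 bp, 19.5% from −100 to −51 bp, 37.3% from −50 to −1 bp and 11.4% from 0 to 49 bp.

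Most of these promoters held CGATA, and the number of copies went with the signal. The word was found on either strand within 100 bp of 784 of the 961 summits, 81.6% (exact 95% interval 79.0 to 84.0), of which 323 held the full TATCGATA, 33.6% (30.6 to 36.7). Among the 14517 single-direction candidates that did not pass the shares in windows of the same length were 24.4% and 1.25%, and among all 146877 candidates that did not pass 20.4% and 0.493%. CGATA was picked in earlier work after these data had been seen, so its share is a description. Divergent peaks held CGATA in 89.7% and TATCGATA in 35.5%, and distal peaks in 35.1% and 8.91%. Counting each strand, 177 members had no CGATA, 115 had 1, 208 had 2, 210 had 3 and 251 had 4 or more, where each TATCGATA counts as 2. The median signal went from 83.0 with none through 110, 127 and 146 to 193 with 4 or more. In replicate 1 the medians were 51.2, 56.5, 63.1, 68.4 and 89.4, and in replicate 2 they were 52.2, 65.2, 74.9, 82.0 and 106. Across the members the Spearman coefficient between the number of words and the signal was 0.44, and 0.35 in each replicate. The members include the 71 minor summits, with a median signal of 13.9 and CGATA near 39.4%. The part of these minor summits in the course of the signal was not tested.

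**Figure D3:**
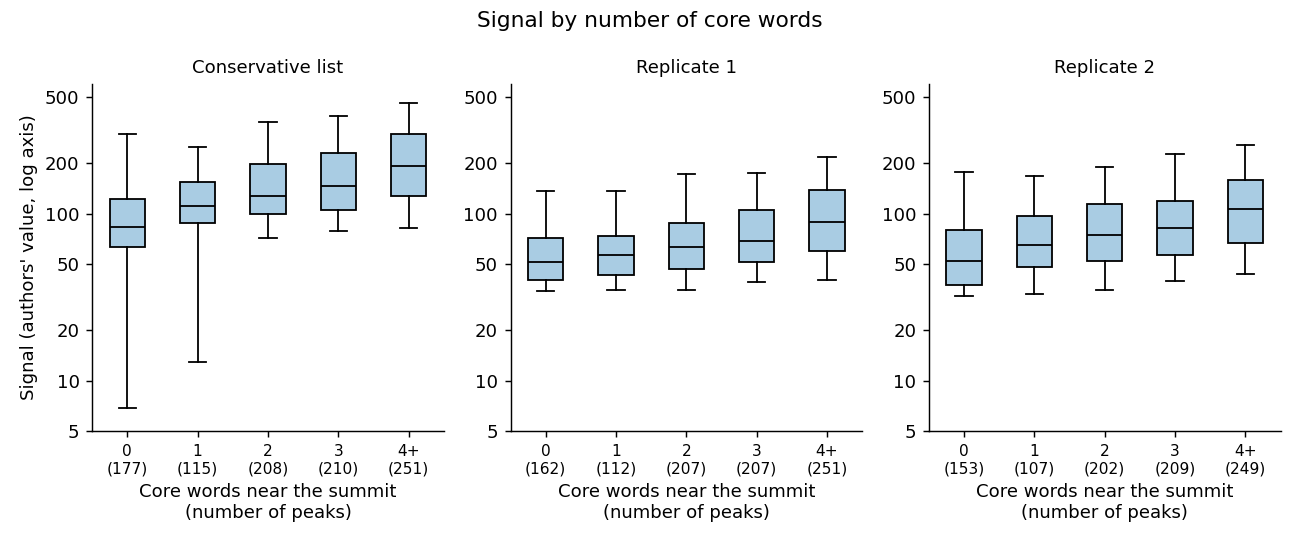
Signal on a log axis by the number of core words, counted on both strands within 100 bp of the summit, in the conservative list and in each replicate; boxes show the quartiles and the median, whiskers reach the 5th and 95th percentiles, and numbers of peaks with a value stand in brackets. The median is higher at each step from 0 words to 4 or more in all 3 panels.

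The number of words also went with the share of candidates and promoters that had a peak. Of the 15507 candidates at single-direction promoters, 1.59% of the 11160 without CGATA were in the conservative list, 4.02% of those with 1 word, 26.5% with 2, 53.8% with 3 and 80.2% with 4 or more (251 of 313, exact 95% interval 75.3 to 84.5). The same course was seen among the 2099 candidates with a summit from −100 to 0 bp, of which 26.1% were peaks in all. Their shares were 2.73% without the word, 12.9% with 1, 52.5% with 2, 65.5% with 3 and 86.4% with 4 or more (191 of 221). Among the annotated start sites, read from −100 to 25 bp whatever their signal, 261 of the 11155 without CGATA had a peak, 2.34%, and the share went through 6.40%, 32.1% and 50.2% to 77.5% (210 of 271, exact 95% interval 72.0 to 82.3) with 4 or more. With TATCGATA 318 of 610 had a peak, 52.1% (48.1 to 56.2), and without it 5.29%. Neighbouring start sites can share a peak.

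The consensus of Ken itself did not follow this course. GNGAAA followed by G or T, the consensus from in vitro selection, lay within 100 bp of 226 members, 23.5% (exact 95% interval 20.9 to 26.3), against 24.6% of single-direction candidates that did not pass and 25.2% of all candidates that did not. Of start sites with the consensus 6.64% had a peak, and of those without 7.34%. Members with the consensus had a median signal of 131 and those without 133. The words of STAT92E, TTCNNNGAA and the same with 4 bases between, were near 6.14% and 6.24% of members, against 5.41% and 5.86% of single-direction candidates that did not pass and 5.08% and 5.53% of all that did not. Motif 1 was near 49 members, 5.10%, against 0.661% of single-direction candidates that did not pass and 0.194% of all, and 45 of these 49 also held CGATA. Of the 224 start sites with Motif 1 and no CGATA 8 had a peak, 3.57% (1.55 to 6.92).

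Other promoter words were more frequent in some cases and less frequent in others than near candidates that did not pass. TATAAA was near 23.5% of members and 16.1% of single-direction candidates that did not pass, with 15.5% of all. TCAGT followed by C or T, the initiator, was near 16.6% against 21.4% and 17.5%. CAGCTG was near 13.2% against 11.5% and 10.3%, CACGTG near 3.33% against 2.92% and 2.87%, and GAGAGA, the word of GAGA factor, near 7.70% against 8.56% and 6.99%. GC content within 100 bp had a median of 39.3% in members and 47.3% in single-direction candidates that did not pass, and its part in these shares was not tested.

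Relative to the TSS the words had distinct places. Around the 903 distinct start sites nearest to a member, TATCGATA had 437 matches within 300 bp, of which 66.6% were centred between −100 and 0 bp, against 58.8% of the 347 at start sites without a peak, with a median of −38.5 bp. From −50 to −25 bp there were 11.7 matches per 100 promoters, against 0.693 at 9086 start sites of genes without a peak. Of 3012 CGATA matches 58.1% lay between −100 and 0 bp, against 26.1% of those at start sites without a peak, and 1577 were on the strand of the gene and 1435 on the other. Motif 1 had 71 matches, and from 0 to 25 bp 16 of 17 were on the strand of the gene. There the frequency was 1.88 per 100 promoters at members and 1.55 at start sites without a peak. The TATA box from −50 to −25 bp had 2.88 matches per 100 promoters at members and 10.2 at start sites without a peak. The initiator from 0 to 25 bp had 4.43 and 16.4, with 36 of the 40 matches at members on the strand of the gene. Of the 1024 matches of TATAAA within 300 bp at members, 11.5% lay between −100 and 0 bp, against 26.0% at start sites without a peak. The consensus of Ken had 788 matches, 15.2% of them between −100 and 0 bp, against 17.2% without a peak, and a median distance to the summit of 161.5 bp, where TATCGATA had 34.5 bp.

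**Figure D4:**
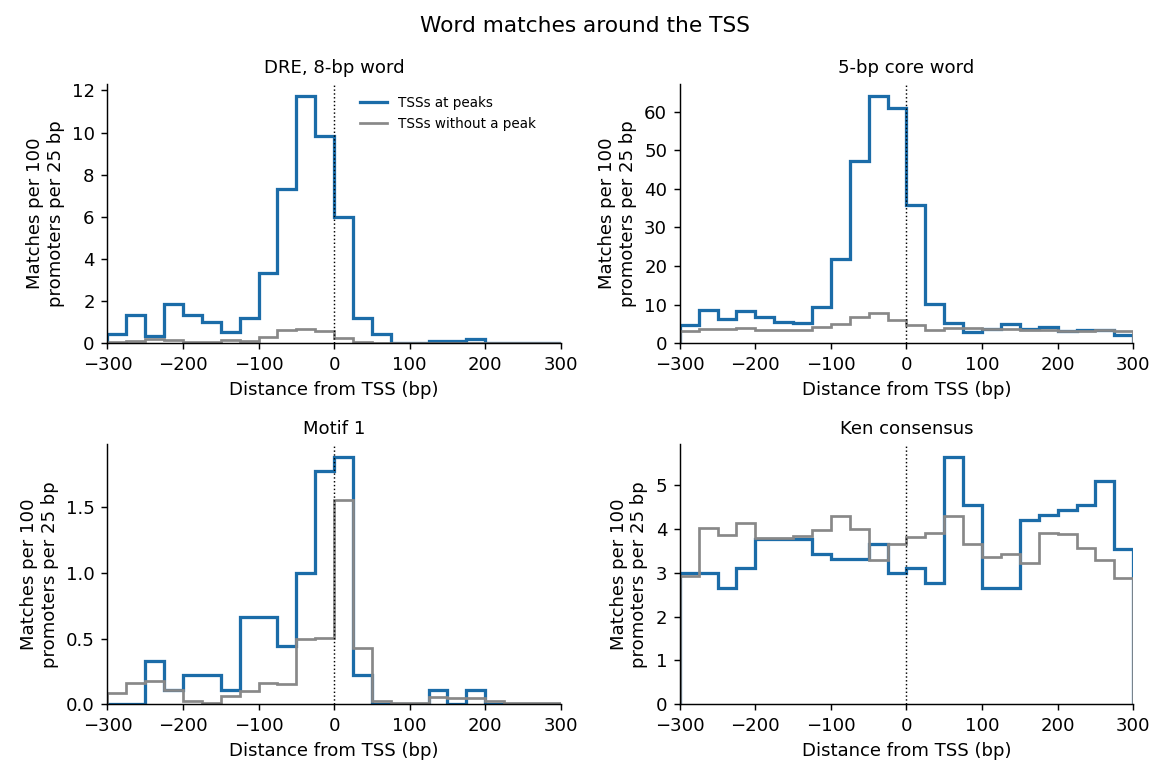
Matches of the DRE, its 5-bp core word, Motif 1 and the consensus of Ken on either strand, per 100 promoters in bins of 25 bp around the TSS, for the 903 start sites nearest to a single-direction peak and 9086 start sites of genes without a peak. The DRE and the core word crowd into the 100 bp before the TSS at peaks, Motif 1 is highest at the TSS in both sets, and the consensus of Ken has no such place.

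Members without CGATA or Motif 1 were weaker and more scattered. There were 173, 18.0%, with a median signal of 83.0, 51.2 and 52.0 in the replicates, 53.2% of them upstream and 32.4% in both thresholded lists. The 323 with TATCGATA had 148, with 71.6 and 84.4, 84.2% upstream and 69.7% in both lists, and the 461 with CGATA only had 142, with 68.3 and 80.3, 77.2% and 64.6%. CGATA was near 39.4% of the 71 minor summits beside a stronger one, against 84.9% of the other 890. The part of minor summits in these values was not tested. Strong peaks without the words existed all the same. After Sox14, milt (−135 bp) and CG13766 the strongest were CG8079 (379), CG14441 (362), Smg5, a factor of nonsense-mediated decay (330), Bdbt (325) and Mkrn1, a makorin (312), the last 5 named after their values were seen. Motif 1 without CGATA was found at 4 members, Dpm3 (226), dlg1, a polarity scaffold (131), Rcc1, the exchange factor of Ran (88.6), and Nse1, also named after their values were seen.

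Genes of the general cell machinery were among those with a peak. Among all genes with a single-direction candidate 10.2% had a peak, and the median of their strongest signals was 141. Of the cytoplasmic ribosomal protein genes 16 of 51 had one, 31.4% (exact 95% interval 19.1 to 45.9), with RpS2 (555), RpS7 (394; 140 and 225 in the replicates) and RpS10b (332; 144 and 183) highest and RpS28b (78.9) lowest. All 16 had CGATA within 100 bp, and 9 had the full DRE, against 81.6% and 33.6% of all members. Of translation initiation factors 6 of 25 had a peak, 24.0% (9.36 to 45.1), led by eIF3f1, eIF3c (441; 163 and 282) and eIF6 (234; 118 and 118). Of mitochondrial ribosomal proteins 6 of 26 did, 23.1% (8.97 to 43.6), led by mRpL4 (388; 166 and 228), mRpL3 (297) and mRpL10 (162). Proteasome subunits had 4 of 26, 15.4%, with Rpn10, a ubiquitin receptor (379; 133 and 245), Rpt1 (141) and Rpn12 (111). The intervals of the proteasome, initiation factor and mitochondrial ribosome shares include 10.2%.

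The other lists of housekeeping genes were small, and the interval of each share includes the 10.2% of all genes. Respiratory chain and ATP synthase genes had 3 of 37, UQCR-14 (386; 183 and 202), ND-B14.5A (335) and COX4 (90.3). Rab GTPases had 3 of 24, Rab35 (251), Rab11 (161) and Rab19 (141), and the vacuolar ATPase had 1 of 20, Vha16-1 (142). Nucleoporins had 2 of 9, 22.2% (2.81 to 60.01), Nup358 (327) and Nup58 (94.1), the spliceosome 2 of 11, 18.2% (2.28 to 51.8), Prp5 (120) and Sf3b3 (117), and Mediator, TFIID and RNA polymerase II genes 2 of 17, Taf9 (153) and Taf4 (86.1). Aminoacyl-tRNA synthetases had 1 of 13, AspRS-m (136), and the chaperonin CCT 2 of 5, 40% (5.27 to 85.3), CCT3 (108) and CCT7. The peak counted for CCT7 is the minor summit described above (43.1). In most of these lists many genes sit at divergent promoters instead, where 6 of 15 synthetases, 10 of 32 respiratory chain genes and 9 of 13 Rab genes had a peak, against 40.7% of all such genes.

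The lists of insulator proteins and of housekeeping promoter factors were short and had high shares. These lists were chosen with earlier results of these data known, so the shares are descriptions. Insulator and architectural proteins had a peak at 4 of 7 genes, 57.1% (18.4 to 90.1). BEAF-32 had 3 of them, at 297, 10 and −41 bp from the nearest TSS, with signals of 241, 148 and 107, and CTCF (99.6) and ZIPIC (92.2), both zinc finger proteins, joined pita. Of the housekeeping promoter factors row, nsl1, a subunit of the NSL acetyltransferase complex (323; 146 and 168), and mof, its acetyltransferase (148), had one among 5 genes. Dref had its peak at a divergent promoter (102), as did Cp190 (145), and M1BP had none in the conservative list within 500 bp.

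Of the JAK-STAT components 4 of 11 had a single-direction peak, 36.4% (10.9 to 69.2). They were Stat92E, the transcription factor of the pathway (−52 bp, 285; 125 and 156), Socs16D (−23 bp, 250; 108 and 147) and Socs36E (137 bp, 72.1; 47.6 and 35.3), both of the family of suppressors, and ken itself (−17 bp, 214; 103 and 112). The promoter of ken held TATCGATA, and those of the other 3 held CGATA only. The receptor dome, the kinase hop and the phosphatase Ptp61F had theirs at divergent promoters, with 390, 314 and 343. The strain carries an insertion targeting ken, and whether this touches the signal at ken was not tested. The share of 36.4% counts ken, and also Socs36E, whose peak was in the thresholded list of neither replicate. The lower limit of that share, 10.9%, is close to the 10.2% of all genes.

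Several lists of tissue-specific genes held no peak at a single-direction promoter. No such peak was found at 131 chemosensory receptor genes, which allows a share of up to 2.78% (exact 95% upper limit). Nor was one found at 105 cuticle protein genes (up to 3.45%) or 37 odorant-binding protein genes (up to 9.49%). The same held for 19 Jonah and trypsin proteases (up to 17.6%), 15 segmentation genes (up to 21.8%) and 10 proneural and neuroblast genes (up to 30.8%). The last 3 limits are above the 10.2% of all genes. At divergent promoters 1 of 3 cuticle protein genes and 1 of 8 odorant-binding protein genes with a candidate there had a peak. Cytochrome P450 genes had 3 of 60, 5%, Cyp6u1 (117), Cyp303a1 (96.1) and Cyp1 (89.3), and Osiris genes 1 of 24, Osi7 (85.8). Hox genes had 1 of 8, 12.5% (0.316 to 52.7), abd-A (74.4; 34.2 and 44.0), and mesoderm and muscle genes 2 of 10, 20% (2.52 to 55.6), Mef2 (117) and tin (88.5). At Mef2 replicate 1 had 46.5, and replicate 2 had no candidate within 200 bp. The peaks at abd-A, tin and Osi7 lay at −177, −291 and −112 bp and had none of the words. Genes known only by a CG number had 237 of 3994, 5.93%.

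**Figure D5:**
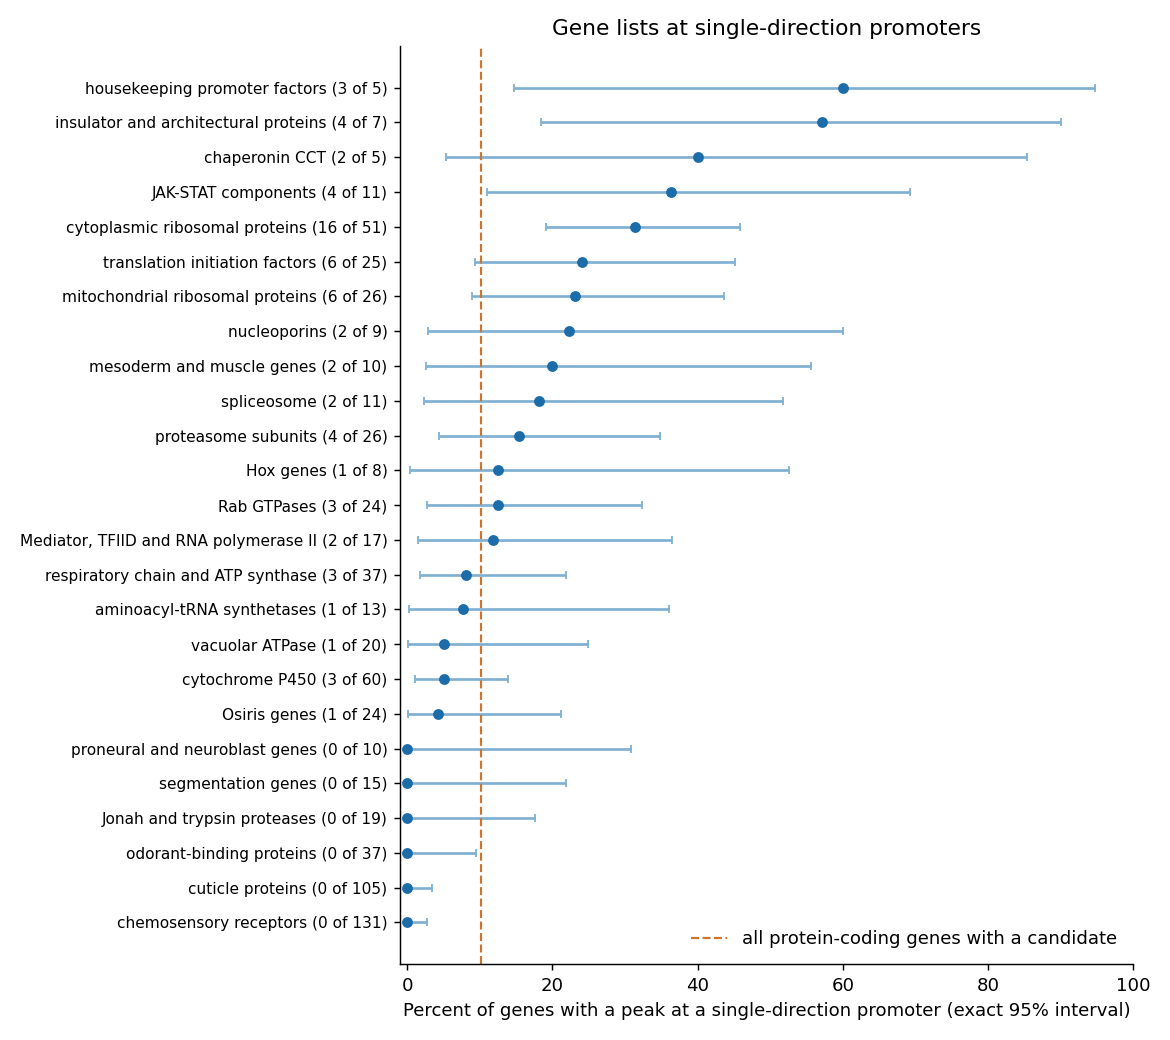
Percent of genes with a candidate at a single-direction promoter that have a peak there, by gene list, with exact 95% intervals over genes; the dashed line marks the 10.2% of all such genes. Cytoplasmic ribosomal proteins, insulator proteins, promoter factors and JAK-STAT components lie to the right of the line with their intervals. The 25 lists were chosen with earlier results of these data known, and the intervals make no allowance for their number. The JAK-STAT list counts ken itself, and also Socs36E, whose peak was in the thresholded list of neither replicate. Chemosensory receptors, cuticle proteins and odorant-binding proteins lie to the left.

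The genes differed from others in length and surroundings. Genes with a single-direction peak had a median length of 3850 bp, against 2192.5 bp for 7746 genes with a candidate but no peak and 2616.5 bp for genes with a divergent peak. Several TSSs were annotated for 42.0%, 28.3% and 33.4% of them. Another gene of the same strand ended within 500 bp upstream of the TSS in 362 of the 961 members, 37.7%. Taking the strongest member of each of 887 genes and the strongest candidate of each of 7603 genes without a peak, the shares were 37.7% and 19.2%. Members behind such a gene end had a median signal of 142 (70.5 and 82.6 in the replicates) and CGATA in 89.2%, and the others 127 (63.1 and 71.1) and 77.0%. The TSS lay inside another gene in 7.10% of the genes with a member and 17.2% of those without. The nearest protein-coding TSS of the other strand was at a median of 3227 bp and 4213 bp, and beyond 500 but within 1000 bp in 22.4% and 16.4%. A non-coding TSS of the other strand lay within 500 bp of 50 members, 5.20%, so single-direction holds for protein-coding genes only. The strongest of these were CtsF, cathepsin F (450; 224 and 235), Hsp110, a chaperone (405; 192 and 218), Chc, the clathrin heavy chain (397; 139 and 246), lost (385) and CG8079 (379), named after their values were seen.

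The share of genes with a peak was larger on X than on the autosomes. X held 238 members, and 221 of its 1460 genes with a candidate had one, 15.1%, against 688 of 7485 on the autosomes, 9.19%, with 8.75% to 9.99% on the 4 large arms. In the list of replicate 1 alone the shares were 10.7% and 7.07%, in that of replicate 2 they were 15.6% and 9.15%, and at divergent promoters 47.0% and 39.4%. The peaks on X were not stronger, with a median signal of 127 against 136. CGATA lay from −100 to 25 bp of 28.7% of single-direction start sites on X and 23.7% on the autosomes, and TATCGATA of 6.20% and 3.68%. The part of either in the difference was not tested. On chromosome 4 there was 1 member among 7 genes, and on Y none among 8.

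Most genes had a single member. The 961 peaks had 887 nearest genes, 69 with several members and of the 909 genes with a TSS in reach 32 also had a divergent peak. Agpat1, BEAF-32, Usp10, gus and sov had 3 members each. At Agpat1, an acyltransferase of phospholipid synthesis, they lay at −462, 27 and 237 bp with signals of 72.8, 84.5 and 3.81. Several TSSs of the same strand were in reach of 189 members, and TSSs of several genes of 22.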

How the data were processed

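The deposited files were lists of peaks on dm6 for each replicate and for both together. The authors' signal per peak has no stated scale. The score is the authors' deposited IDR score, capped at 1000, and the −log10 of the global IDR was deposited by the authors in the ranked lists. Aligner, peak caller and read depth: not given in the sources used here, so the precision of a signal is unknown. The labels name a possible control, not analysed here. The ranked lists of both replicates together hold 16 value columns of single inputs with no header, which were not used.

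Summits were classed by TSSs of protein-coding genes of Ensembl release 115, with Python 3.11.15, numpy 2.4.6, pandas 2.3.3 and scipy 1.17.1. Scripts were tested on simulated data. The signal of a replicate was that of its nearest candidate summit within 200 bp. A peak counted as in the thresholded list of a replicate when any summit of that list lay within 200 bp. Words were sought on both strands within 100 bp of the summit. Non-coding TSSs left out transposable elements. Intervals are exact Clopper-Pearson at 95% over peaks or genes, which are not replicates, and cover counting error only. With 1 group no test between samples exists, and differences between kinds of peaks or genes were not tested. Replicates are called biological in the labels. The members and lists were chosen with earlier results of these data known.

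Named genes, of which 1 is not reported here, are the 25 strongest members, the 3 strongest of each gene list, the 5 farthest on each side of the TSS and 5 outside, the 5 with the largest replicate difference in each direction, the gene with the most members, the 3 strongest without CGATA and Motif 1, and ken, Socs36E, dome, hop, Stat92E, Ptp61F, BEAF-32, Dref, M1BP and Cp190. Of 20 segmentation symbols 19 were matched; h is named hry in this release. Alternatives changed the list, threshold, window, gene models and motif window.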

Additional observations from a re-analysis of the deposited data

How the results depend on the processing

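Summits upstream of the TSS, at −34 bp in the median, were found under every alternative run. The median moved to −40 bp with canonical transcripts, −37 bp with a window of 1000 bp, −43 bp in the stronger 50% of the list and −42 bp at a global IDR of 0.001, and lay between −41 and −38.5 bp in the lists of single replicates. The upstream share was 86.1% and 84.2% in the stronger 50% and at that IDR, and 76.6% to 79.4% in the single replicates. Those 2 stricter lists held 505 and 462 of the members, 49.7% and 51.1% of the peaks on the main arms. That share was 58% with a window of 200 bp, 41.5% with 1000 bp and 44.9% when a TSS of any gene type on the other strand ended membership. CGATA was near 91.9% and 90.7% in the stricter lists, 86.9% with a window of 200 bp, 77.2% with 1000 bp, 70.6% when sought within 50 bp, and 82.9% to 85.7% in the single replicates. TATCGATA was near 38.2% and 39.4% in the stricter lists and 26.8% within 50 bp. Genes with a peak were 5.70% and 5.06% in the stricter lists, 11.0% in the other pooled list, 17.3% and 8.01% with windows of 200 and 1000 bp, and 7.66% to 10.2% in the single replicates. Leaving out the 71 members beside a stronger summit, an alternative chosen after seeing the data, gave an upstream share of 78.3%, a median of −37 bp and CGATA near 84.9%. No paired analysis was possible because there is 1 group. Read depth is unknown, so what it limits cannot be given, and a gene without a peak is one without a peak in these lists.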
